A study of Trichosurus vulpecula with 116 samples.

Results

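The stomach and both stretches of intestine of a single brushtail possum pouch young (*Trichosurus vulpecula*) gave 3 RNA-sequencing libraries, 1 each from tissue labelled stomach, small intestine and large intestine. They were taken by their labels from the 116 libraries of the series and set against the 10 other tissues of the same animal, namely liver, brain, skin, kidney, heart, bladder, muscle, eye, lung and spleen. The animal, called Sandy, was a male of 22 days post-partum (dpp), the animal from which the possum reference genome was made. Where along the gut each piece was cut, and whether its contents were washed out, is not given in the sources used here. As each tissue is represented by 1 library of 1 animal, no difference below could be tested, and every value describes these libraries only.

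At this age a possum is permanently attached to a teat and lives on milk. In suckling mammals the intestine digests milk sugar with lactase, packs milk fat into lipoproteins, and takes up whole proteins into the large lysosomes of its lining cells, a route that closes at weaning. The stomach lining in turn makes mucus and, once it has matured, acid and pepsin.

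Levels are given in CPM, the usual unit in which the reads on a gene are scaled to a common library total of 1000000 reads. They were not divided by gene length, so each gene's level is compared between libraries, and genes are ranked within a library only by their share of its reads. Reads on genes numbered 24573936 in the stomach, 26237944 in the library labelled small intestine and 30690886 in the library labelled large intestine, within the range of the 13 libraries (17130171 in the eye to 32064469 in the bladder). A single read stood for 0.0361, 0.0344 and 0.0294 CPM in the 3 gut libraries, in that order, and a gene without reads could lie as high as 3 reads, or 0.108, 0.103 and 0.0880 CPM. Such limits and the intervals below cover counting error only. A gene was counted as apart between libraries when the difference was at least 2 on the log2(CPM + 1) scale, close to 4-fold for genes well above 1 CPM, over the 17854 genes with 1 CPM or more in any of the 13 libraries. In whole tissue, fewer cells of a type and less RNA per cell cannot be told apart.

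The labels were first compared with marker genes. *HOX* genes are numbered by their place in 4 clusters, and those with the highest numbers are used towards the tail end of the body, including the hindgut. The 16 *HOX* genes numbered 9 to 13 together had 0.938 CPM in the stomach, 27.2 CPM in the library labelled small intestine and 1.76 CPM in that labelled large intestine. These sums rested on 26, 789 and 60 reads. *HOXA13*, the hindmost gene of its cluster, had 201 reads in the library labelled small intestine (6.92 CPM, exact 95% Poisson interval 5.997 to 7.95), 1 read in that labelled large intestine and none in the stomach. Outside the gut, *HOXA13* reached 91.0 CPM in the bladder and *HOXD9* 54.2 CPM in the kidney. *HOXB13* and *HOXC13* had no read in any gut library, and *HOXD13* had 8 reads in the library labelled small intestine. Of the 16 genes, 11 were higher in the library labelled small intestine and 1 in that labelled large intestine, where 10 had no read. By contrast, the 23 genes numbered 1 to 8 summed to 82.3, 63.1 and 40.6 CPM in the stomach and the libraries labelled small and large intestine.

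**Figure D1:**
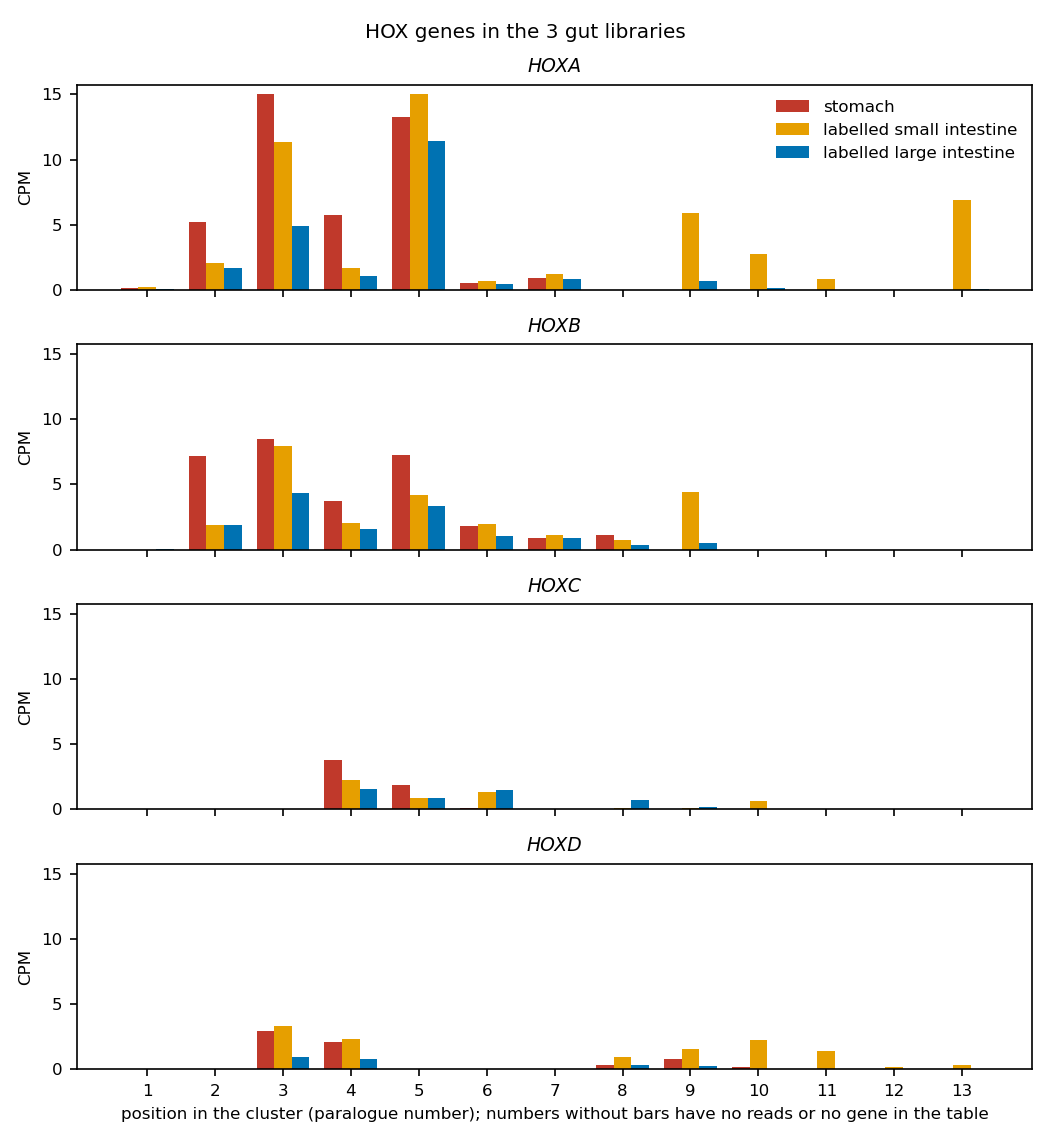
Level in CPM (y axis) of each *HOX* gene by its number in the cluster (x axis), for the stomach and the libraries labelled small and large intestine, 1 library each. Genes numbered 9 and above were mostly seen in the library labelled small intestine, *HOXA13* at 6.92 CPM. Of the 23 genes numbered 1 to 8, 19 had over 3 reads in the stomach and 20 in each intestinal library.

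Some other genes of the lower gut were also higher under the small intestine label. The colonic carbonic anhydrase *CA1* had 6.61 CPM there and no read in the library labelled large intestine. The mucin *MUC2* had 145 CPM against 47.3 CPM. Of the 21 genes tested in a list of colonic surface cell and ion transport genes, 16 were higher in the library labelled small intestine and 3 in that labelled large intestine, beside 9532 and 7436 of all genes tested, that is 53.4% and 41.6%. Those counts take differences of any size. At a difference of at least 2, the counts were 2 and 0 of the 21, beside 42 and 10 of all genes tested. Of the 21, 4 were set apart in the gut in 1 or more of the comparisons given below, as were 239 of all 17854 genes tested (1.34%). The upper-gut enzyme sucrase-isomaltase (*SI*) went the other way, with 41.3 CPM in the library labelled small intestine and 90.7 CPM in that labelled large intestine, and so did the peptidase gene *NAALADL1* with 21.8 and 72.3 CPM. These values go against the labels. Other genes did not, as the ileal bile acid carrier *SLC10A2* had 9.85 CPM under the small intestine label and 1.82 CPM under the large, and *PYY*, a hormone gene of the lower gut, 4.72 and 6.96 CPM. *GCG*, another such gene, was also higher under the large intestine label, by more than *PYY* (values with the hormone genes), and *GUCA2B* of the colonic list had 228 and 311 CPM. A wrong label and a difference in the stretch of gut taken cannot be told apart here, so both libraries are called by their labels throughout, and counts are given with and without them.

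The stomach label was matched by its own markers. *GKN1* and *GKN2*, which encode gastrokines of the stomach surface, had 386 and 405 CPM in the stomach and no read in either intestine. *CDX2*, the transcription factor that sets intestinal identity, had 206 and 208 CPM in the libraries labelled small and large intestine, 34.2 CPM in the stomach and at most 0.0347 CPM elsewhere. Thus the stomach library held an intestinal marker at a lower level, and its source was not tested.

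The 3 gut libraries shared 73 genes whose lowest gut level lay at least 2 above the highest of the other 10 tissues (0.409% of the genes tested). A further 64 genes were that far above all 12 other tissues in the stomach alone (0.358%), and 127 genes were so in both intestines at once (0.711%), 32 of them among the 73. By contrast, only 4 genes set the library labelled small intestine apart from all others (0.0224%) and only 3 that labelled large intestine (0.0168%). The same count for other tissues ran from 40 genes in the bladder to 374 in the brain, with 120 in the kidney and 233 in the liver. Stomach and the library labelled small intestine shared 1 gene, *CAPN13*, and stomach and the library labelled large intestine none. Left out in turn, the library labelled small intestine gave 74 shared genes and 172 genes for that labelled large intestine, and the library labelled large intestine gave 80 shared genes and 147 for that labelled small intestine. With both intestines left out, the stomach count was 153, and without the stomach the intestines shared 219 genes.

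**Figure D2:**
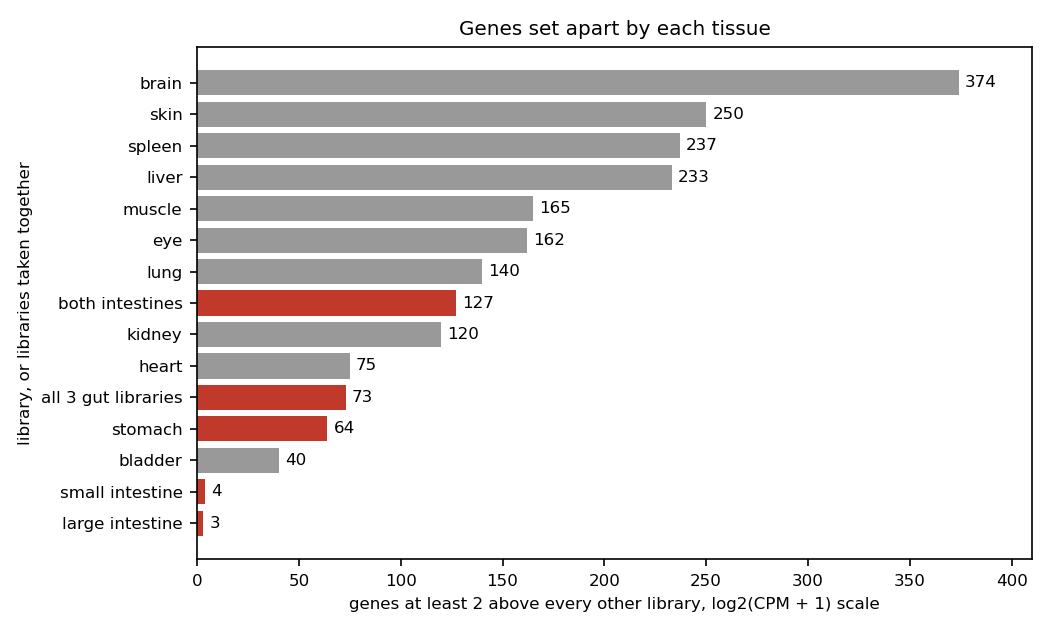
Number of genes (x axis) whose level lay at least 2 above every other library on the log2(CPM + 1) scale, for each of the 13 tissues alone and for the gut libraries combined (y axis). Each intestine alone had 3 or 4 such genes, the stomach 64 and the intestines together 127, while the brain had 374.

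The 2 intestinal libraries were close to each other. Their Spearman coefficient over the genes tested was 0.991, whereas that of the stomach was 0.905 with the library labelled small intestine, 0.890 with that labelled large intestine and 0.887 with the bladder, a hollow organ rich in smooth muscle. Genes are not replicates, and libraries of 1 animal share its genome and age, so these coefficients serve as a description. Between the intestines 52 genes differed by at least 2. As a yardstick between animals, the liver of this animal differed by as much from the 15 other pouch young livers of up to 27 dpp at between 124 and 3275 genes (median 363). The nearest in age, a liver of 20 dpp, differed at 363 genes (2.03%), the nearest kidney of 15 dpp at 1122 (6.28%) and the nearest brain of 17 dpp, a library of 2279733 reads, at 4172 (23.4%). Over all 8 kidneys of other pouch young the counts ran from 675 to 7218 (median 2200) and over all 7 brains from 362 to 4172 (median 2339). Age, kit and depth also differed in those pairs.

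Of the 73 shared genes, 38 carried a gene name and 35 a placeholder symbol, which is given here with its position. The largest difference was that of *DNASE1*, a secreted enzyme that cuts DNA, with 226 CPM in the stomach and 458 and 356 CPM in the libraries labelled small and large intestine. The other 10 tissues ran from 0 to 0.938 CPM (liver). *MAMDC4*, which encodes a membrane protein linked to uptake into the vesicles of suckling gut cells, had 144, 1641 and 2229 CPM in the same order, and at most 0.243 CPM in the other tissues (eye). *AOC1*, the gut amine oxidase that breaks down histamine, had 120, 1238 and 1020 CPM, against at most 0.252 CPM. The stomach was the lowest of the gut libraries in each of the 3 genes, which were chosen for lying above all other tissues.

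*LOC118857047* (chr7:10072780-10081645 in the possum assembly mTriVul1) stood out for its even level, with 835, 851 and 750 CPM. *LOC118847926* and *LOC118847894* lie next to the chloride channel regulator *CLCA2* on chromosome 4, with 1 gene between them, and had 157, 790 and 910 CPM and 128, 616 and 192 CPM. As neighbours they may share reads, and their separate levels are uncertain. The remaining genes of the first 10 were known gut genes. The liver-intestine cadherin *CDH17* had 74.6, 466 and 387 CPM in the stomach and the libraries labelled small and large intestine. *TMPRSS15*, the enteropeptidase that switches on pancreatic trypsin, had 116, 208 and 231 CPM. The surface mucin *MUC13* had 47.0, 74.2 and 72.7 CPM, and *EPS8L3*, which belongs to a family that shapes actin bundles, 40.2, 184 and 186 CPM. For these 4 genes the highest level among the other tissues was 1.49 CPM, that of *TMPRSS15* in the kidney.

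**Figure D3:**
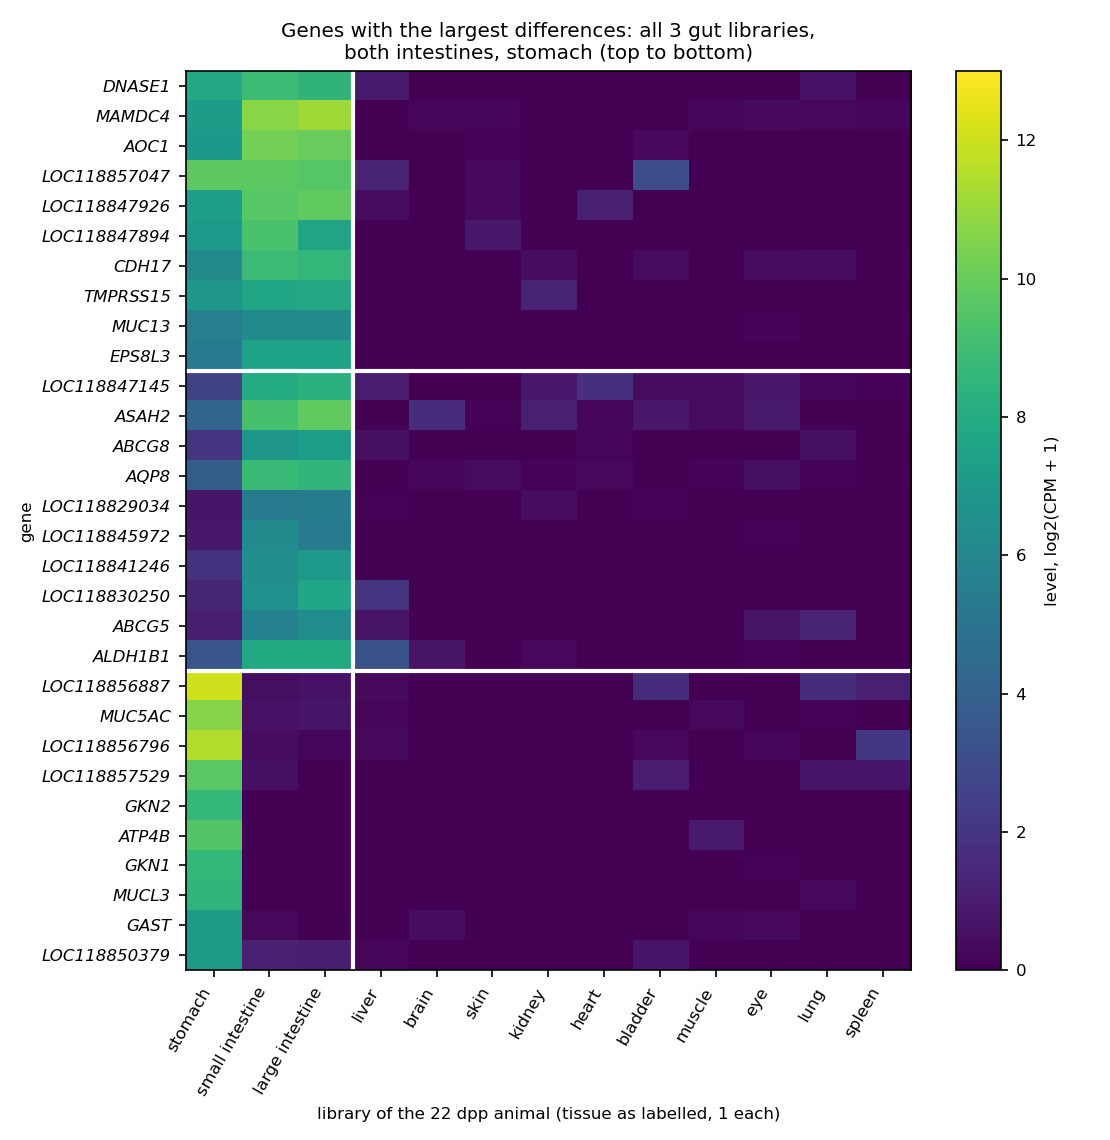
Level on the log2(CPM + 1) colour scale of the 10 genes with the largest difference in each of 3 comparisons (rows; white lines part the genes of all 3 gut libraries, of both intestines and of the stomach) in the 13 libraries of the animal (columns, as labelled). The genes of both intestines also had reads in the stomach, *ASAH2* at 17.8 CPM, whereas the gastrokine *GKN2* had none in either intestine.

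In the shared genes the stomach mostly held the lowest gut level. Over the 73, its level was a median 24.4% of the mean of both intestines, and 10 genes were higher in the stomach than in that mean. Over the 127 genes of both intestines the stomach stood at a median 10.7% (quartiles 5.25% and 16%). These genes were chosen for lying at least 2 above the stomach too, so a low stomach level was built in. In 77 of these 127 genes the stomach lay above all 10 other tissues, a count that was not made for all genes tested. Those genes that are also among the 73 had been chosen for a stomach level above these 10 tissues. That part of the 77 was thus built in, and the count is given as a description only. Of the 127 genes, 113 had at least 1 CPM in the stomach, but so did 14835 of all 17854 genes tested. That level in the stomach was thus common and does not mark these genes. Of the shared genes 40 were higher in the library labelled small intestine and 33 in that labelled large intestine, while of the genes of both intestines 30 and 97 were. The shares of all genes tested were 53.4% and 41.6%.

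Genes of the brush border, the carpet of microvilli on absorbing cells, were prominent in both intestines. Of 15 structural genes tested, 5 were among the 73 shared genes and 7 among the 127 of both intestines, against 0.409% and 0.711% of all genes tested. Their median difference from the mean of the other 10 tissues was 4.73 in the stomach and 6.08 in the intestines on the log2 scale, where the median of all genes tested was 0.12 and −0.31. *VIL1*, the actin bundler villin, had 62.7 CPM in the stomach and 481 and 488 CPM in the libraries labelled small and large intestine, against at most 2.57 CPM elsewhere (skin). *MYO1A*, the motor that ties the bundle to the membrane, had 26.5, 181 and 158 CPM, against at most 0.126 CPM. The linkers between microvilli tips, *CDHR2* and *CDHR5*, reached 705 and 821 CPM in the library labelled large intestine, but were also seen elsewhere, *CDHR5* at 119 CPM in the kidney. Ezrin (*EZR*) had 1248, 1077 and 1164 CPM, and was also present in all other tissues (median 246 CPM).

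The enzymes anchored on this border were more unequal between stomach and intestine. Their 11 tested genes summed to 422 CPM in the stomach, 3463 and 4483 CPM in the libraries labelled small and large intestine and 667 CPM in the kidney, the highest of the other tissues. Of these genes 8 of 11 were set apart in the gut, against 1.34% of all genes tested, and the median difference was 3.70 in the stomach and 7.24 in the intestines. Lactase (*LCT*), which splits milk sugar, had 14.8, 42.7 and 69.6 CPM and at most 0.0349 CPM in any other tissue. *LOC118837034* begins 1048 bases away from *LCT* and had 7.47, 37.9 and 78.1 CPM. The pair lay close together on chromosome 2, so reads could be split between them. Sucrase-isomaltase, which acts on sucrose and starch and is not needed for milk, was also present in the intestines, as given above, and had 0.469 CPM in the stomach. Trehalase (*TREH*), for the sugar of insects and fungi, had 41.1, 328 and 212 CPM, against at most 1.04 CPM elsewhere. The meprins *MEP1A* and *MEP1B*, both proteases, had 83.6, 1466 and 1897 CPM and 19.1, 157 and 343 CPM. *ASAH2*, the ceramidase that digests the sphingolipids of milk fat membranes, had 17.8, 591 and 915 CPM.

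Lipid uptake genes summed to 4160 CPM in the stomach, 68180 and 72979 CPM in the libraries labelled small and large intestine and 10153 CPM in the liver. *APOA1*, the main protein of high-density lipoprotein and part of the particles in which absorbed fat leaves the gut, was the gene with most reads in either intestine, at 4.49% and 5.14% of the libraries labelled small and large intestine. Its level was 44869 and 51355 CPM there, 2342 CPM in the stomach and 2650 CPM in the liver. *APOB*, the backbone of those particles, had 19843 and 17645 CPM in the intestines, 1348 CPM in the stomach and 6147 CPM in the liver. Thus both apolipoproteins were higher in the intestines than in the liver of the same animal. Liver levels varied between animals, as *APOA1* had 18454 CPM in the liver of another pouch young, of 13 dpp. The 14 lipid genes tested had a median difference of 1.72 in the stomach and 5.84 in the intestines, and 5 were set apart in the gut, against 1.34% of all genes tested.

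The steps of fat and sterol handling differed in how far other tissues shared them. *DGAT2*, which makes triglyceride, had 148 CPM in the stomach and 1932 and 1961 CPM in the libraries labelled small and large intestine, and *RBP2*, the intestinal retinol carrier, 3.97, 293 and 358 CPM. *NPC1L1* takes cholesterol up, and had 14.1, 139 and 271 CPM. *ABCG5* and *ABCG8* pump sterols back out, lie 374 bases apart on chromosome 3, and had 1.16, 51.3 and 79.3 CPM and 2.85, 118 and 158 CPM. Both transporters were at or below 1.42 CPM in the other 10 tissues, the liver included, where *ABCG8* had 0.469 CPM. *APOA4* went the other way, with at most 1.82 CPM in the gut and 13.3 CPM in the liver.

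Of 16 nutrient carriers tested, 2 were set apart in the gut (the bile acid exporter subunit *SLC51B* and the nucleoside carrier *SLC28A2*), against 1.34% of all genes tested, and 12 had their highest level in a gut library, against 15.3%. The median difference was 2.29 in the stomach and 5.01 in the intestines. The glucose carrier *SLC2A2* had 85.1 CPM in the stomach, 1004 and 1146 CPM in the libraries labelled small and large intestine and 925 CPM in the liver. The peptide carrier *SLC15A1* had 112, 400 and 336 CPM, and *SLC5A1*, which takes up glucose and galactose with sodium, 20.4, 79.9 and 63.0 CPM. For mineral uptake 1 of 9 genes was set apart, against 1.34% of all genes tested, the zinc importer *SLC39A4*, with 5.16, 112 and 135 CPM. The calcium-binding *S100G* had 405 CPM in the stomach and 154 and 50.1 CPM in the intestines, with 213 CPM in the kidney.

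The lysosomal genes of the suckling gut were described by 20 tested genes, of which 3 were set apart and 16 were highest in a gut library, against 1.34% and 15.3% of all genes tested. The median difference was 1.21 in the stomach and 2.73 in the intestines. *GLB1*, the lysosomal beta-galactosidase, had 742 CPM in the stomach, 7804 and 8002 CPM in the libraries labelled small and large intestine, and a median of 35.2 CPM in the other 10 tissues (highest 116 CPM in the heart). *ARSA*, the arylsulphatase that breaks down sulphatide, had 85.4, 592 and 626 CPM, against at most 38 CPM. Both genes were among the 127 of both intestines, and *GLB1* was among the 73 as well.

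Of the proteases in the list, neither *CTSB* nor *CTSZ*, both cathepsins, was set apart. *CTSB* had 553, 1988 and 2183 CPM and *CTSZ* 95.2, 175 and 152 CPM, against at most 801 CPM in the spleen and 89.7 CPM in the lung. Of the receptors that bring proteins in, *CUBN* (cubilin) had 14.1, 84.2 and 144 CPM, below the 719 CPM of the kidney, while its partner *AMN* had 17.2, 202 and 260 CPM and 116 CPM in the kidney. *LRP2* (megalin), which works with cubilin in the kidney, had 19.5 CPM in the stomach, 1.24 and 1.32 CPM in the intestines and 1460 CPM in the kidney. *FCGRT*, the receptor that carries milk antibodies across the gut wall in some suckling mammals, had 206, 127 and 129 CPM, thus most in the stomach. None of the 8 galactose metabolism genes was set apart, where 1.34% of all genes were, and 5 were highest in a gut library, against 15.3% of all genes. The list had a median difference of 1.16 in the stomach and 1.86 in the intestines. The mutarotase *GALM* had 77.2, 195 and 211 CPM, and 187 CPM in the kidney.

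The remaining leading genes of both intestines were transporters, enzymes and placeholder genes. *LOC118847145* had 4.91 CPM in the stomach and 250 and 310 CPM in the libraries labelled small and large intestine, and the water channel *AQP8* 13.5, 429 and 376 CPM. *ALDH1B1*, a mitochondrial aldehyde dehydrogenase, had 10.3, 241 and 233 CPM. Placeholder genes made up 4 more of the first 10, namely *LOC118829034* (0.722, 42.1 and 43.5 CPM), *LOC118845972* (0.758, 74.3 and 40.8 CPM), *LOC118841246* (2.74, 84.6 and 130 CPM) and *LOC118830250* (1.52, 90.0 and 207 CPM). Outside the gut, *LOC118830250* reached 3.05 CPM in the liver and the other placeholder genes among these at most 2.33 CPM. Of the 21 tested genes of the colonic list, 3 were among the 127 of both intestines, against 0.711% of all genes tested. Besides *AQP8* these were the guanylin ligand *GUCA2B*, with 18.9, 228 and 311 CPM, and the receptor *GUCY2C*, with 75.1, 655 and 722 CPM. The other ligand, *GUCA2A*, had 0, 12.2 and 5.58 CPM.

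The transcription factors of the intestinal lining reached the stomach as well. Of 15 tested (median 2.57 in the stomach and 3.10 in the intestines), *CDX2* and *ISX* were among the 73 shared genes, and *CDX1* and *CDX2* among the 127, against 0.409% and 0.711% of all genes tested. *CDX1* had 1.41 CPM in the stomach and 40.8 and 29.4 CPM in the libraries labelled small and large intestine, and no read in any other tissue. *ISX*, which restrains vitamin A uptake, had 5.31, 30.1 and 13.5 CPM. *HNF4A* was less confined, with 136, 312 and 297 CPM and 126 CPM in the kidney. *PRDM1* (BLIMP1), which holds the suckling programme of the mouse intestine in place, had 13.5, 58.2 and 57.7 CPM, below the 91.9 CPM of the eye. *PDX1* was highest in the stomach, at 18.8, 4.13 and 0.851 CPM.

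The 64 genes of the stomach included mucus and surface genes. *MUC5AC*, the main mucin of the gastric surface, had 1567 CPM in the stomach, 0.551 and 0.704 CPM in the libraries labelled small and large intestine and at most 0.209 CPM in the other tissues. *TFF2*, the trefoil peptide of gastric glands, had 122 CPM, against at most 1.42 CPM in any other library. *MUC6*, the gland mucin, lies 2 genes along from *MUC5AC* on chromosome 6, with *MUC2* between them, and had 13.0 CPM against at most 0.385 CPM. *MUCL3*, a mucin-like gene, had 358 CPM against at most 0.231 CPM. Of 10 tested gastric mucus genes (median difference 6.66 in the stomach and −0.01 in the intestines), 7 were set apart in the stomach, against 0.358% of all genes tested, and the list summed to 3296 CPM there, 17.5 and 6.84 CPM in the intestines and 276 CPM in the lung. The lung level came mostly from *CLDN18*, a tight junction gene with 219 CPM in the stomach and 193 CPM in the lung.

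The largest difference of all was that of *LOC118856887*, with 4208 CPM in the stomach, 0.379 and 0.558 CPM in the intestines and at most 2.31 CPM elsewhere. It lies on chromosome 7 beside *LOC118857529* (814 CPM) and near *LOC118856796* (2945 CPM), within chr7:59756416-59948350, and none of the 3 genes exceeded 3.26 CPM in any of the other 12 libraries. Neighbours of this kind may be copies that share reads, so that their separate levels are uncertain. A further placeholder among the first 10, *LOC118850379*, had 134 CPM in the stomach and at most 1.27 CPM in any other library. *CTSE*, a protease of the stomach surface, had 2958 CPM in the stomach, 2.48 CPM in the library labelled small intestine and no read in that labelled large intestine. It was not set apart, as the bladder had 1803 CPM.

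Of the acid pump, 1 subunit gene was measured. *ATP4B*, its beta subunit, had 736 CPM in the stomach and at most 0.942 CPM in the other libraries. The alpha subunit gene *ATP4A* was not among the symbols measured. The chloride channel *CLIC6* had 234 CPM and the histamine receptor *HRH2*, which drives acid secretion, 35 CPM, each at least 2 above every other library. By contrast, the gastrin receptor *CCKBR* had 6.03 CPM, below the 10.8 CPM of the kidney, and the potassium channel subunit *KCNE2* stayed under 1 CPM in all 13 libraries. *CBLIF*, the gene of intrinsic factor, and the chitinase *CHIA* had no read in the gut. Of the chief cell list only *PGF* was tested, and that symbol is better known for placental growth factor, so the pepsinogens were not described. The parietal list, 7 genes tested, had a median difference of 4.05 in the stomach and −0.63 in the intestines.

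Gastric transcription factors were found in the stomach together with general foregut ones. *NKX6-3* had 90.5 CPM and *BARX1* 59.8 CPM, against at most 0.795 and 3.42 CPM in any other library, and these 2 of 10 tested were set apart, against 0.358% of all genes tested (median 3.38 in the stomach and 0.38 in the intestines). *SOX2*, a foregut factor also used in the eye and brain, had 13.2 CPM in the stomach and 0.172 and 0.147 CPM in the libraries labelled small and large intestine. *GATA4* was even over the gut, at 107, 116 and 120 CPM. Among signals, the hedgehog gene *SHH* had 59.9 CPM in the stomach and 0.379 and 0.352 CPM in the intestines, whereas *IHH* had 166, 161 and 134 CPM and was 1 of 28 hedgehog, WNT and BMP genes to be set apart in the gut, against 1.34% of all genes tested (median 0.33 and −0.71).

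Some genes of secretory cells had reads in all 3 libraries, but many listed genes were not measured. These were 10 of 23 goblet symbols, *TFF3* among them, and 10 of 21 Paneth and antimicrobial symbols, *LYZ* and *DEFA5* among them. The goblet genes *ZG16* and *ST6GALNAC1* stayed under 1 CPM in all 13 libraries. Of 11 goblet cell genes, 2 were shared by the gut (*MUC2* and *MUC13*) and 3 were set apart in the stomach (*AGR2*, *MUC1* and *MUC4*), against 0.409% and 0.358% of all genes tested, and these 3 genes are also made by mucous cells of the stomach. The list had a median difference of 4.17 in the stomach and 1.73 in the intestines. *AGR2*, which folds mucins, had 892 CPM in the stomach and 192 and 87.2 CPM in the libraries labelled small and large intestine. *ATOH1*, the switch to secretory fate, had 1.37, 11.0 and 4.43 CPM. For Paneth and antimicrobial genes 2 of 11 were set apart, against 1.34% of all genes tested, the T-cell attracting chemokine *CCL25* in the gut (22.0, 254 and 255 CPM) and *DMBT1* in the stomach (110 CPM), with medians of 1.88 and 0.03. *PIGR*, the carrier of secreted antibodies, had 229, 171 and 116 CPM, while *JCHAIN*, the chain that joins those antibodies, had at most 0.144 CPM.

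Hormone genes differed along the gut. *GAST* (gastrin) and *GHRL* (ghrelin), both hormones of the stomach, had 136 and 73.6 CPM in the stomach and at most 3.26 CPM in the other 12 libraries, and were the 2 of 21 enteroendocrine genes set apart, against 1.34% of all genes tested (median 2.39 and 2.03). *CHGA*, a general marker of endocrine cells, had 305, 376 and 220 CPM, and *SST* (somatostatin) 104, 112 and 41.2 CPM. *CCK*, which empties the gall bladder, had 31.6, 76.0 and 44.8 CPM, and *MLN* (motilin) 4.66, 20.0 and 12.7 CPM. *GCG*, the source of the glucagon-like peptides, and *NTS* (neurotensin) were highest in the library labelled large intestine, *GCG* with 0.397, 6.82 and 27.3 CPM and *NTS* with 9.10, 22.0 and 66.8 CPM. Of these 21 genes, 16 were higher in the library labelled small intestine and 5 in that labelled large intestine, against 53.4% and 41.6% of all genes tested.

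**Figure D4:**
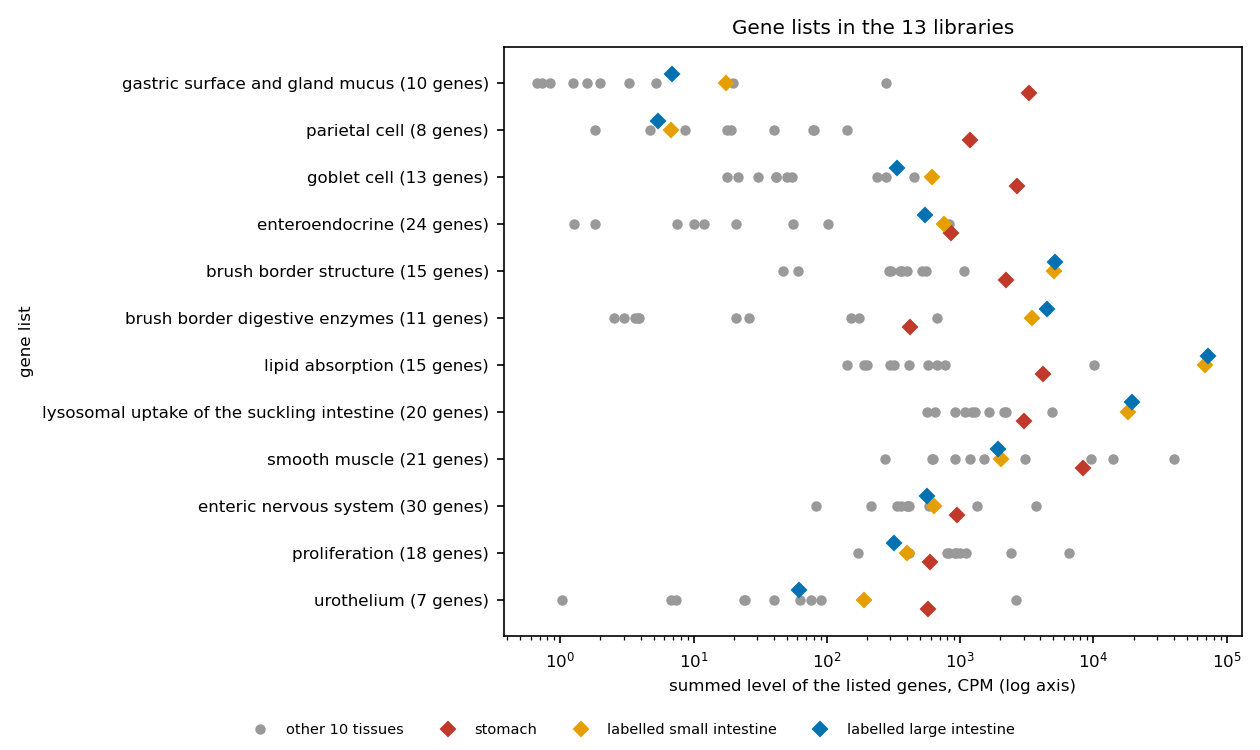
Summed level in CPM on a log axis (x axis) of 12 gene lists (y axis, with the number of listed genes in the table) in the 13 libraries; diamonds are the gut libraries and grey points the other 10 tissues. Gastric mucus genes summed to 3296 CPM in the stomach and 17.5 and 6.84 CPM in the libraries labelled small and large intestine, and brush border enzymes to 422, 3463 and 4483 CPM.

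Between the intestines, 42 genes were at least 2 higher in the library labelled small intestine (0.235%) and 10 in that labelled large intestine (0.056%). The cytoskeletal *KRT20*, a keratin of surface cells, was the only named gene to set the library labelled small intestine apart, with 166 CPM there, 38.9 CPM in the library labelled large intestine, 20.5 CPM in the stomach and at most 5.51 CPM elsewhere. The other 3 were *LOC118840037* (20.6 CPM against 0.675 CPM in the library labelled large intestine), *LOC118844213* (14.8 CPM against no read) and *LOC118836372* (40.7 CPM against 1.91 CPM). *LOC118830088* and *LOC118830291* showed the same direction, with 18.5 against 0.470 CPM and 52.4 against 3.11 CPM. *BCAS1*, of goblet cells and myelin, had 39.4 against 2.201 CPM, the calpain *CAPN13* 47.8 against 3.67 CPM, and the arginase *ARG1* 11.7 against 0.293 CPM. *BCAS1* was higher still in the stomach, at 305 CPM. Keratins *KRT7* and *KRT19* had the order stomach, small, large as well, with 1637, 542 and 127 CPM and 958, 298 and 61.5 CPM.

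In the other direction *FAM151A* had 56.0 CPM in the library labelled large intestine, 4.85 CPM in that labelled small intestine, no read in the stomach and 7.35 CPM in the kidney. *LOC118839500* had 28.9 against 1.10 CPM and *LOC118840003* 7.72 against 0.723 CPM, and these 3 genes made up the set of the library labelled large intestine. *KNG1*, which encodes kininogen, had 11.1 against 1.72 CPM. *OLFM4*, a gene of crypt cells, had 59.1 against 13.9 CPM. Among placeholder genes the levels were 12.5 against 1.45 CPM for *LOC118843607*, 21.5 against 3.10 CPM for *LOC118838990* and 26.1 against 4.06 CPM for *LOC118836912*. *LOC118848802* had 41.9 against 7.16 CPM and *LOC118833609* 42.7 against 7.71 CPM. By list, 12 of 14 lipid genes, 17 of 20 lysosomal genes and 9 of 11 brush border enzymes were higher in the library labelled large intestine, and 10 of 11 goblet genes and all 18 proliferation genes in that labelled small intestine. Of all genes tested 41.6% were higher in the library labelled large intestine and 53.4% in that labelled small intestine.

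**Figure D5:**
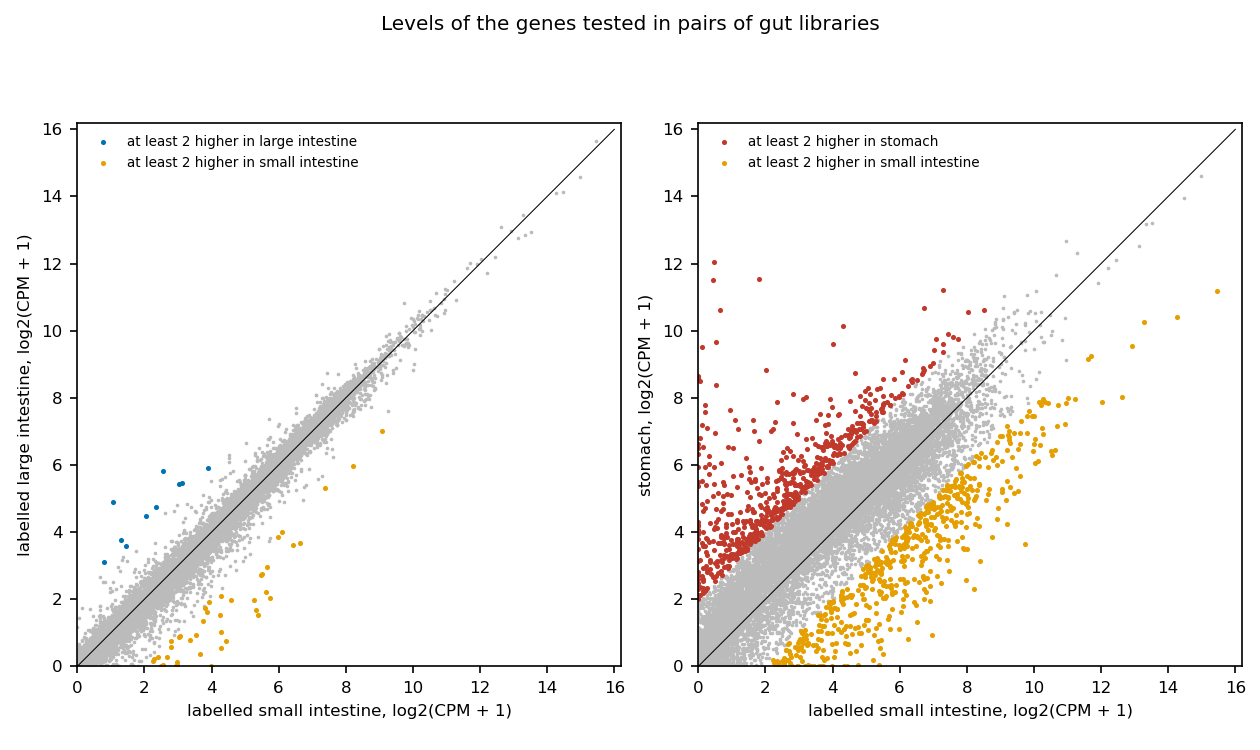
Levels of the 17854 genes tested on the log2(CPM + 1) scale, the library labelled small intestine (x axes) against that labelled large intestine (left) and against the stomach (right); each point is a gene and coloured points differ by at least 2. Between the intestines 52 genes are coloured, and between the stomach and the library labelled small intestine 1162.

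The stomach differed from either intestine at more genes. At least 2 higher in the stomach were 607 genes against the library labelled small intestine (3.4%) and 816 against that labelled large intestine (4.57%), and lower in the stomach were 555 (3.11%) and 612 (3.43%). This split moved with the scaling, since the median gene was 0.35 higher in the stomach than in the library labelled small intestine and 0.38 higher than in that labelled large intestine. With libraries scaled by the median ratio of genes, which sets that shift to 0, 343 genes were higher in the stomach and 802 lower than in the library labelled small intestine, and 448 and 907 against that labelled large intestine. Equal 75th percentiles gave 439 and 658, and 568 and 717. Totals without the 20 highest genes of each library gave 499 and 620, and 677 and 660.

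The genes at the top of these comparisons were the gastric ones already given, *CTSE* among them. On the intestinal side they were several placeholder genes, led by *LOC118833862*, beside a carrier and a few other named genes. *LOC118833862* had 11.4 CPM in the stomach and 855 and 1814 CPM in the libraries labelled small and large intestine. *ACBD7*, of the family that binds acyl-CoA, had 0.902, 124 and 139 CPM. *ABCB11*, the bile salt export pump of the liver, had 7.76 CPM in the stomach and 338 and 404 CPM in the libraries labelled small and large intestine. The liver of this animal had 204 CPM. *LOC118833852* had 0.289 CPM in the stomach and 83.4 CPM in the library labelled large intestine.

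Among the gut libraries, the summed levels of genes of muscle and nerve of the gut wall were highest in the stomach. The 21 smooth muscle genes summed to 8334 CPM there, 2032 and 1935 CPM in the libraries labelled small and large intestine and 40390 CPM in the bladder, and none of the 21 was set apart, where 1.34% of all genes were (median 2.41 and 0.70). *MYH11*, the smooth muscle myosin, had 2114, 551 and 506 CPM. The 7 tested genes of interstitial cells of Cajal, the pacemakers of the gut, had a median difference of 1.24 in the stomach and −0.73 in the intestines, and *ANO1*, the channel that defines them, 34, 3.68 and 3.40 CPM. The enteric nerve list summed to 948, 633 and 568 CPM, and to 3683 CPM in the brain. In each gut library the gene of this list with most reads was *ERBB3*. At least 2 higher in the stomach were 2 of 28 genes against the library labelled small intestine and 6 against that labelled large intestine. For all genes tested these counts were 607 and 816. Of the 28 genes 24 were higher in the library labelled small intestine than in that labelled large intestine, against 53.4% of all genes tested, and none was set apart, where 1.34% of all genes were (median 2.19 and 0.79). The receptor *RET*, needed for enteric nerves, had 24.4, 7.85 and 6.02 CPM. The 12 mesenchymal transcription factors had medians of 0.90 and 0.75.

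Genes of dividing cells were low in the intestines. The 18 proliferation genes summed to 597 CPM in the stomach, 402 and 318 CPM in the libraries labelled small and large intestine, 170 CPM in the brain and 6573 CPM in the spleen. Their median difference was −0.61 in the stomach and −1.42 in the intestines. Of the 15 stem and crypt genes none was set apart, where 1.34% of all genes were (median 1.04 and −0.18). The stem cell receptor *LGR5* had 8.23, 48.4 and 38.1 CPM and *OLFM4* 50.2, 13.9 and 59.1 CPM.

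The lymphoid list, 25 genes in the table, summed to 96.4, 110 and 99.9 CPM in the stomach and the libraries labelled small and large intestine. The 21 genes tested had a median difference of −0.02 and 0.06, and none was set apart, where 1.34% of all genes were. The T-cell gene *CD3E* had 5.92, 12.1 and 8.63 CPM, and the lymphoid homing receptor *CXCR5* 2.89, 13.5 and 10.6 CPM, where the highest of the other tissues were 12.4 CPM in the lung and 1.72 CPM in the spleen. *MS4A1* and *CD79B*, which mark B cells, had at most 1 read in any gut library, so B cells were not detectable by these genes at this depth. The 12 myeloid genes had medians of −0.96 and −1.36, although *CD68*, a lysosomal protein of macrophages, had 2.02, 38.4 and 48.0 CPM.

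Genes of neighbouring organs were measured beside these results. The mesothelial list (7 genes, with most reads on *UPK1B* in the stomach) summed to 420 CPM in the stomach, 24.9 and 44.3 CPM in the intestines and 1363 CPM in the bladder. The urothelial list summed to 571, 190 and 61.7 CPM and 2616 CPM in the bladder. In both intestines its gene with most reads was *KRT20*, the keratin of surface cells given above. Of its members *UPK3A* had 189 CPM in the stomach and *UPK1A* 1.12 CPM, against 439 and 536 CPM in the bladder. The part of bladder or peritoneal lining in the stomach values was not tested. Liver genes had medians of 0.96 and 0.76, and *AHSG*, which is made by hepatocytes, had 17.8, 0.998 and 0.528 CPM against 31105 CPM in the liver.

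Of the pancreas genes 3 were tested, and *CELA3B* carried 196, 209 and 206 CPM with a median of 192 CPM in all other tissues. The skeletal muscle list summed to 16.4, 13.1 and 13.8 CPM and had *MYOD1*, *MYOG* and *MYF6* at 0 in all 3 libraries. Squamous genes summed to 56.3, 35.2 and 26.3 CPM, with *TP63* at 0 in the stomach and 1 read in either intestine. Red cell genes summed to 99.98, 49.4 and 45.1 CPM, and the adipocyte list to 41.0, 207 and 291 CPM, where the highest of the other tissues was the heart at 282.8 CPM, with the lipid droplet gene *CIDEC* at 18.4, 194 and 276 CPM, while *ADIPOQ* had at most 1 read. The 22 general epithelial genes had medians of 4.56 and 3.61, with *EPCAM* at 361, 816 and 768 CPM.

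Finally, mitochondrial genes held 7.66% of the stomach library, 9.97% of that labelled small intestine and 7.53% of that labelled large intestine. The 20 highest genes took 11.5%, 20.8% and 19.6%. In the stomach these were led by *COX1* (2.51%), *ATP8* (1.60%), *CYTB*, *ND4L* and the actin gene *ACTG1* (0.658%), in the library labelled small intestine by *APOA1*, *COX1*, *ATP8*, *APOB* and *CYTB*, and in that labelled large intestine by *APOA1*, *COX1*, *ATP8*, *APOB* and *LOC118850276* (1.11%). The gut genes were then looked up in 46 liver, kidney and brain libraries of other pouch young. They were 31 of the 33 livers, of up to 109 dpp, 8 kidneys of 10 to 85 dpp and 7 brains of 10 to 62 dpp. Of the 73 shared genes 49 had their lowest gut level at least 2 above all 46, against 0.672% of all genes tested. For the 127 genes of both intestines and the 64 of the stomach the counts were 93 and 55, against 1.74% and 1.94% of all genes. The genes had been chosen for lying above the liver, kidney and brain of this animal, so high counts were built in. As those libraries hold only 3 of the 10 tissues compared, the counts bear on these alone.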

How the data were processed

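RNA of 13 tissues of 1 possum was read by the authors as a strand-specific poly(A) library per tissue. Per the labels and the study's methods they trimmed reads with Trim Galore 0.6.7, aligned them with HISAT2 2.2.1 to the possum genome and counted reads on genes in SeqMonk. The deposited values are log2 CPM, with a gene without reads entered as 0.9 of a read. Although named otherwise they were not divided by gene length, since the reads recovered from the steps were whole within 0.01 for 100% of values below 500 reads. As a tissue had 1 library, no model was fitted and no p-value given. Members and lists were chosen with earlier results of these data known. Differences were taken as log2(CPM + 1), with 1 CPM as the filter. Named genes were the 10 largest differences against other tissues, the 8 largest per pair and direction from 10 CPM up, the 5 genes with most reads, and up to 5 members of each of 35 lists with defining genes near 0. Further list members, and *LOC118837034* as the neighbour of *LCT*, were chosen after their values were seen. Of 645 listed symbols 520 were in the table and 492 were tested. Of the table's 23816 rows, 381 repeat a symbol. Intervals are exact Poisson (95%). Alternatives were other pseudocounts, filters, scalings and thresholds, and leaving tissues out. Scripts were tested on simulated data (Python 3.11.15, pandas 2.3.3, scipy 1.17.1). A few genes of the lists are not reported here.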

Additional observations from a re-analysis of the deposited data

How the results depend on the processing

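All counts are of 1 animal. Of the planned recomputations of these counts 51 stayed within 1.5 times of the reported count and 23 did not, and the cause was not tested. With a pseudocount of 0.1 CPM 7 genes set the library labelled large intestine apart, 153 differed between the intestines, 1932 between the stomach and the library labelled small intestine and 2430 between the stomach and that labelled large intestine. At a difference of at least 3 the counts were 40 shared genes, 37 of the stomach, 1 for each intestine and 40 for both, 12 between the intestines, and 380 and 521 between the stomach and the libraries labelled small and large intestine. At a difference of at least 1 they were 163, 148, 21, 24, 396, 296, 4430 and 5356. Without liver and kidney 211 genes were shared, 6 set the library labelled large intestine apart and 302 both intestines. Chosen after seeing the data, leaving out the stomach gave 219 genes of both intestines, leaving out either intestine gave 147 and 172 genes for the one kept, and leaving out both gave 153 stomach genes. No scaling moved a total count by more than 1.5 times, but median-ratio scaling did so for the genes higher in the stomach than in either intestine, from 607 to 343 and from 816 to 448. No paired analysis was possible because no result comes from a test.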

Other observations

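A few values outside the lists were noticed after the levels had been seen and are given with no test. Genes of milk proteins had reads in the stomach library. *CSN2*, the beta-casein gene, had 9.06 CPM in the stomach, 0.207 CPM in the library labelled small intestine, none in that labelled large intestine and at most 0.502 CPM (spleen) in the other tissues. Its neighbour on chromosome 6, *LOC118852584*, had 16.6, 0.413 and 0.147 CPM, and *LALBA*, the gene of alpha-lactalbumin, 2.42 CPM in the stomach. *CSN2* and *LOC118852584* were among the genes set apart in the stomach. *LALBA* was not, and its levels in the other libraries are not given here. Where these reads came from was not tested.

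*AFP* (*LOC118852573*), the fetal counterpart of albumin, had 9.93 CPM in the stomach and 31.4 and 99.5 CPM in the libraries labelled small and large intestine, against 36993 CPM in the liver. *IGF2R*, the receptor that clears the growth factor encoded by *IGF2*, had 207, 448 and 521 CPM, and its next highest level was 212 CPM in the kidney. *IGF2* itself had 381, 288 and 323 CPM, against 5736 CPM in the muscle.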
